A study of Homo sapiens with 10 samples.

Results

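The 54 genes described here encode proteins that carry a cell through the G2 phase and mitosis: cyclins and kinases, checkpoint and kinetochore proteins, anaphase regulators, spindle and cytokinesis factors, and proteins that shape chromosomes. They were taken by symbol from a list of G2 and M phase genes with the kinesins of KIF symbols left out. CENPE, itself a motor kinesin, is among the 54. The list used no expression value, but the members were chosen with earlier results of these data known. All 54 were found among the 58174 genes of the table and all passed the filter on low values, which kept 17118 genes averaging 1 TPM or more over the 10 libraries (TPM is a transcript's length-corrected share of a library, scaled to a fixed total). The members lie on 20 chromosomes, and their means ran from 11.62 TPM (CENPM) to 757.9 TPM (HMGB2), with a median of 70.9 TPM.

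RNA came from SH-SY5Y, an established human neuroblastoma line that keeps dividing in culture and is used as a neuron-like model. In the knockdown experiment, 3 siTDP-43 libraries came from cells transfected with a pool of small interfering RNAs against TDP-43 and 3 siControl libraries from cells given a control pool. Both pools were used at 50 nM with Lipofectamine, given at 0 and 24 h, and the cells were grown for 96 h. A separate experiment used genome-edited cells, with 2 libraries of the homozygous N352S genotype of TDP-43 and 2 of the wild-type one. The labels number the wild-type libraries 79 and 80 and the N352S libraries 81 and 82. TDP-43, encoded by TARDBP, is a nuclear RNA-binding protein that regulates splicing and is lost from the nucleus in amyotrophic lateral sclerosis. The labels name neither separate cultures nor the number of edited clones, so the p-values given here describe the spread of these particular libraries, which may be technical, and a clone and its genotype cannot be told apart.

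Entry into mitosis is driven by CDK1 bound to A- and B-type cyclins, which CDC25 phosphatases switch on. The spindle checkpoint then holds back the anaphase-promoting complex until every kinetochore is attached, after which that complex, with CDC20 and UBE2C, marks cyclin B and securin (PTTG1) for destruction and lets separase (ESPL1) part the sister chromatids. Many of these genes are transcribed late in the cell cycle by the MuvB complex with B-MYB and FOXM1, through a promoter element called the cell cycle genes homology region (CHR), often together with CCAAT boxes bound by NF-Y. The same genes are repressed in resting cells and after induction of the CDK inhibitor p21 (CDKN1A).

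The targeted gene was checked first. TARDBP averaged 255.8 ± 0.433 TPM in siControl and 64.35 ± 2.91 TPM in siTDP-43 libraries (SD, n = 3 each), which left 25.2% of its level, while N352S libraries had 122.6 ± 0.332 TPM and their wild-type controls 200.5 ± 6.97 TPM (SD, n = 2 each), or 61.1%. The depth of the libraries is unknown, since TPM are scaled to one total. Mitochondrially encoded transcripts held 12% to 14.3% of the TPM of siControl libraries, 15.5% to 16.2% of siTDP-43, 14% to 14.8% of wild type and 13.6% to 14.1% of N352S. All 8 noradrenergic neuroblastoma markers used (PHOX2A, HAND2, GATA2, GATA3, TH, DBH, CHGA, ISL1) averaged at least 1 TPM in siControl, siTDP-43 and N352S libraries, and 7, all but TH, did in wild type. Their summed level was 4788 to 4961 TPM with the control pool and 5472 to 5635 after knockdown, and 4685 to 4787 in wild type and 4357 to 4613 in N352S. Among 6 Schwann cell markers the sum was 58.42 to 58.93, 32.8 to 35.21, 54.54 to 61.97 and 66.69 to 70.3 TPM in the same order. It followed PMP22, while the defining marker SOX10 was listed at 0 in all siControl libraries and stayed under 1 TPM in the others. Summed fibroblast markers were 93.71 to 106.1, 120.2 to 128.9, 71.63 to 93.55 and 81.32 to 84.41 TPM. The part of these differences in the results below was not tested.

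The promoters of the members share sequence elements that the choice of the list did not use. RefSeq promoter sequences (GRCh38.p14; 250 bases before to 50 after each annotated start) were available for 43 of the 54 genes, with 57 starts in all; AURKA, BIRC5, BUB3, CDCA2, CENPM, FOXM1, HMGB2, RACGAP1, TPX2, TTK and UBE2C are named only. The sequences below are the 100 bases before the start, on the strand of the gene. They show members that turn up in the results as strongly lower after knockdown or higher in N352S cells. Capitals mark a CHR (TTTGAA or TTCGAA, or its reverse complement) and a CCAAT box (CCAAT, or ATTGG on the other strand). The first 7 hold a CHR in this stretch and the last 2, PTTG1 and TOP2A, only CCAAT boxes. Outside this stretch TOP2A has 2 CHRs, 194 and 151 bases before the start. CCNB1, CDC25C and CDCA8, also among the most clearly changed members, are not printed. In the 100 bases before the start CCNB1 has 0 CHRs and CDCA8 has 1, while CDC25C has 1 at chr5:138331805-138331904 and 0 at its other starts.
PRC1: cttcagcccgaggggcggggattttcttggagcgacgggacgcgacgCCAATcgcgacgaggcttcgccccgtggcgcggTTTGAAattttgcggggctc
HMMR: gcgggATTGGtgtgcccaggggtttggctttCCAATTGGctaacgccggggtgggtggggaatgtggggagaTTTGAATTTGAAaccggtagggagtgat
MKI67: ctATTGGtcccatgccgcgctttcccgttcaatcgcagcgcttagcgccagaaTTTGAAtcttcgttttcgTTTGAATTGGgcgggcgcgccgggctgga
CCNB2: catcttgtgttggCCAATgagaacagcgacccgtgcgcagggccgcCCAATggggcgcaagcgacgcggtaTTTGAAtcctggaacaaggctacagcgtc
CDC20: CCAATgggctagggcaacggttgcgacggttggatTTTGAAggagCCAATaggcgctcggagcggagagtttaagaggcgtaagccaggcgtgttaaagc
CKS1B: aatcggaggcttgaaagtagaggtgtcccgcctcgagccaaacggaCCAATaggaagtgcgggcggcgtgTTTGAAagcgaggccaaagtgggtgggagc
CENPA: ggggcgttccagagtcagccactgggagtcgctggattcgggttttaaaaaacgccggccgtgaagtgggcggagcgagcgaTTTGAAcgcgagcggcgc
PTTG1: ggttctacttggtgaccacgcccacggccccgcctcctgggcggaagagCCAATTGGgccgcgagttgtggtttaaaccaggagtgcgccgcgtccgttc
TOP2A: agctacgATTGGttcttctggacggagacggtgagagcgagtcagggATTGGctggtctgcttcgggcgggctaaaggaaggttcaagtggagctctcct
In PRC1 (chr15:90994536-90994635, minus strand) the CHR begins 20 bases before the start and the CCAAT box 53. HMMR (chr5:163460532-163460631, plus strand) has a CHR repeated head to tail, and MKI67 (chr10:128126424-128126523, minus strand) has 2 CHRs, one of which overlaps an ATTGG. The CHR begins 29 bases before the start in CCNB2 (chr15:59105046-59105145, plus strand), 65 in CDC20 (chr1:43358881-43358980, plus strand), 30 in CKS1B (chr1:154974581-154974680, plus strand) and 18 in CENPA (chr2:26785956-26786055, plus strand). PTTG1 is shown at the first of its RefSeq starts (chr5:160421755-160421854, plus strand) and TOP2A at chr17:40417897-40417996 on the minus strand.

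A CHR occurred on either strand in 37 of the 57 member promoters (64.9%), against 16.4% of all 35116 promoters of this length in the table. Counted by gene, 34 of 43 members (79.1%) had one, against 15.2% of tested genes with a promoter. Within 50 bases before the start, a CHR was found in 22 of 43 members (51.2%) and in 2.61% of tested genes. CCAAT boxes occurred in 33 of 43 members (76.7%) against 43.2% of tested genes, and a CHR and a CCAAT box stood in the same promoter in 47.4% of member promoters and 4.74% of those of tested genes. E2F sites, searched as TTTCCCGC, TTTGGCGC and TTTGGCGG on both strands, were found in 4 of 43 members (9.3%) and 5.85% of tested genes, against 22 of 41 genes of G1 and S phase (53.7%), of which 3 held a CHR (7.32%). The CHR overlapped a CCAAT box in CDCA8 and MKI67. These are matches of letters and not measured binding sites. A CHR was found in 28 of 35 members called lower after knockdown (80%), in 6 of 8 not called (75%) and in 8 of 11 called higher in N352S (72.7%).

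Knockdown addressed what TDP-43 depletion does to mitotic transcripts. After knockdown, 42 of the 54 genes fell (77.8%) and 0 rose, where 19.8% of all tested genes were called lower and 6.19% higher (limma, Benjamini-Hochberg adjusted p under 0.05 over all tested genes). No member had a fold above 0 at an unadjusted p under 0.05 either, a count of 0. The median log2 fold change over members, on the log2(TPM + 1) scale used throughout, was -0.33, against -0.08 over all tested genes, and the range ran from -0.74 (HMMR) to 0.03 (CENPM). At a threshold of 1.5-fold as well as adjusted p, 1 of the 54 members, HMMR, was called. That share is below the 2.77% of all tested genes. All siTDP-43 libraries lay below all siControl libraries in 49 members, a pattern found in 31.7% of tested genes, and the groups overlapped in PLK4, SPC24, CENPM, CDCA2 and CDCA5. In a culture measured in bulk, fewer mitotic cells and less RNA per cell cannot be told apart.

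These values depend in part on how libraries are scaled. Median-of-ratios scaling moved the median of all genes from -0.08 to 0, and the split of all called genes from 3389 lower and 1059 higher to 2077 lower and 1944 higher. With it, 33 members fell and 0 rose, with a background of 12.1% lower, and the members' median was -0.24. The 9 calls lost were those of CKS1B, CKS2, CDCA3, NEK2, BUB1B, BUB3, CDC20, TACC3 and ANLN.

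**Figure D1:**
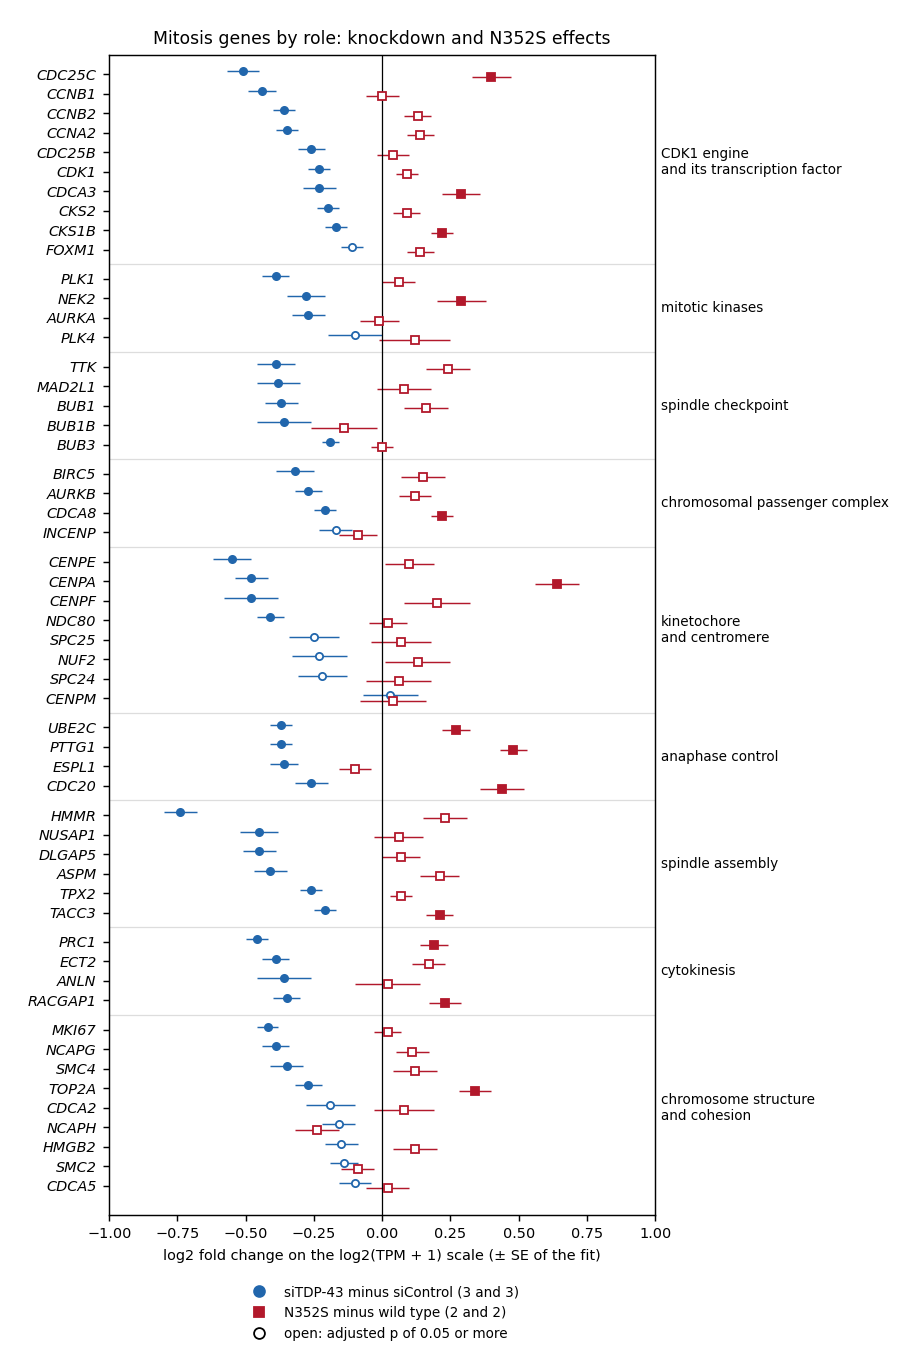
Log2 fold changes of the 54 genes by role, siTDP-43 minus siControl (circles, 3 and 3 libraries) and N352S minus wild type (squares, 2 and 2), with SEs of the fit as bars and open symbols for genes not called. Circles lie left of 0 in 53 genes, with HMMR farthest at -0.74, and squares lie right of 0 in 46 of these 53, with CENPA farthest at 0.64.

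Among the 10 genes of the CDK1 engine, 9 fell (90%, against 19.8% of all tested genes). CDK1 (ENSG00000170312, chromosome 10, 60778331 to 60794852), the kinase itself, had 136, 133 and 139.5 TPM in siControl and 115, 118 and 115 TPM in siTDP-43 libraries. It fell to 85.1% of control (log2 -0.23 ± 0.04, limma adjusted p = 0.0018). Its partner cyclin B1, encoded by CCNB1 (ENSG00000134057, chromosome 5, 69167010 to 69178245), had 249, 239.8 and 232 TPM in control and 179.9, 178 and 174 TPM in knockdown libraries, well apart, and fell to 73.7% (log2 -0.44 ± 0.05, limma adjusted p = 0.00047). Cyclin B2, from CCNB2 (ENSG00000157456, chromosome 15, 59105078 to 59125045), whose CHR is shown above, had 82.6, 83.8 and 87.95 TPM in control and 66.4, 66.9 and 63.8 TPM in knockdown libraries. It fell as well (log2 -0.36 ± 0.04, limma adjusted p = 4e-04). CDC25C (ENSG00000158402, chromosome 5, 138285265 to 138338355), one of the phosphatases that activate CDK1 and among the lowest of the 54 by level, had 15.8, 17.8 and 18.03 TPM in control and 11.6, 11.96 and 11.9 TPM in knockdown libraries. Every siTDP-43 library was lower than every control, and the level fell to 68.6% (log2 -0.51 ± 0.06, limma adjusted p = 0.00053).

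The other members of the group were cyclin A2 (CCNA2, 78.4% of control), the phosphatase CDC25B (83%), the small CDK-binding proteins CKS1B (89%) and CKS2 (87%) and CDCA3 (84.9%), a trigger of mitotic entry that aids destruction of the inhibitory kinase WEE1. FOXM1 (ENSG00000111206), the transcription factor that activates many of these genes, was not called. Its level was 149.8 ± 4.35 TPM in siControl and 138.5 ± 4.73 TPM in siTDP-43 libraries (SD, n = 3 each; log2 -0.11 ± 0.04, limma adjusted p = 0.066), with all knockdown libraries below all controls.

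Of 4 further mitotic kinases, PLK1 fell to 75.8% (log2 -0.39 ± 0.05, limma adjusted p = 0.00072), AURKA to 82.3% and NEK2, which parts the centrosomes, to 81.9%. PLK4, which drives centriole duplication, was not called: siControl 3 at 58.6 TPM stood above the other controls at 43.8 and 44.1 TPM, and the siTDP-43 libraries had 45.5, 41.8 and 48.1 TPM. All 5 spindle checkpoint genes fell, to 75.7% (TTK), 76.6% (MAD2L1), 76.8% (BUB1), 77.5% (BUB1B) and 87.8% (BUB3) of control. TTK and BUB1, the checkpoint kinases, had log2 fold changes of -0.39 ± 0.07 and -0.37 ± 0.06 (SE; limma adjusted p = 0.0029 and 0.0031). In the chromosomal passenger complex, which corrects wrong attachments, AURKB fell to 83%, BIRC5 (survivin) to 79.9% and CDCA8 (borealin) to 86.1%. INCENP, its scaffold, was at 88.6% and not called (limma adjusted p = 0.062), but passed with the replicate number as a block (adjusted p = 0.036; 0.025 to 0.4 over its 23 alternatives).

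Kinetochore genes were split by call, with 4 of 8 called lower (50%, against 19.8% of all tested genes). CENPE, whose protein carries chromosomes along microtubules, fell to 66.9% (log2 -0.55 ± 0.07, limma adjusted p = 0.00073), CENPF to 70.9% and NDC80, the microtubule-binding core, to 74.9% (log2 -0.41 ± 0.05, limma adjusted p = 0.00093). CENPA (ENSG00000115163, chromosome 2, 26764289 to 26801067), the centromeric histone, had 46.2, 45.8 and 53.99 TPM in siControl and 34.99, 33.1 and 35.3 TPM in siTDP-43 libraries. It fell to 70.9% of control (log2 -0.48 ± 0.06, limma adjusted p = 0.00094). The other subunits of the NDC80 complex were not called: NUF2 was at 84.3% of control (limma adjusted p = 0.13), SPC24 at 85.3% (0.12) and SPC25 at 83.5% (0.074). These shares were near that of CDK1, which was called at 85.1%. In each subunit siControl 3 was the highest control, for NUF2 at 137.9 TPM against 100.7 and 109.3 TPM. Without siControl 1, NUF2 and SPC24 were called lower. CENPM, the least abundant member, had 11.6, 12.2 and 15.03 TPM in control and 12.4, 12.8 and 14.1 TPM in knockdown libraries, and the groups overlapped. Its log2 fold change of 0.03 was the only one above 0 among the 54 and turned negative without siControl 1, without siControl 2 and without siTDP-43 3.

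All 4 anaphase regulators fell (against 19.8% of all tested genes). PTTG1 (ENSG00000164611, chromosome 5, 160421822 to 160428744), which encodes securin, the inhibitor of separase, had 208, 201 and 193 TPM in siControl and 160.3, 155 and 149.8 TPM in siTDP-43 libraries. Its level fell to 77.2% (log2 -0.37 ± 0.04, limma adjusted p = 3e-04). UBE2C (ENSG00000175063, chromosome 20, 45812576 to 45816957), the ubiquitin-conjugating enzyme of the anaphase-promoting complex, had 239.6, 225 and 222 TPM in control and 168, 182 and 181 TPM in knockdown libraries and fell to 77.3% (log2 -0.37 ± 0.04, limma adjusted p = 4e-04). Separase (ESPL1) fell to 77.2%. CDC20, the activator of the complex, fell to 83.3% (log2 -0.26 ± 0.06, limma adjusted p = 0.018), a call that was lost with the replicate block (adjusted p = 0.063; 0.0084 to 0.1 over its 23 alternatives).

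The 6 spindle assembly genes fell as well, with a median log2 fold change of -0.43. HMMR (ENSG00000072571, chromosome 5, 163460203 to 163491945), a microtubule-associated protein of the spindle poles, had 53.9, 53.4 and 63.2 TPM in siControl and 33.5, 32.7 and 34.6 TPM in siTDP-43 libraries. It kept 59.1% of its control level, the lowest share among the members (log2 -0.74 ± 0.06, limma adjusted p = 0.00012). DLGAP5 was at 72.4%, NUSAP1 at 73%, ASPM at 74.7%, TPX2 at 83.4% and TACC3 at 86.5%. These proteins bind and bundle spindle microtubules or focus them at the poles.

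**Figure D2:**
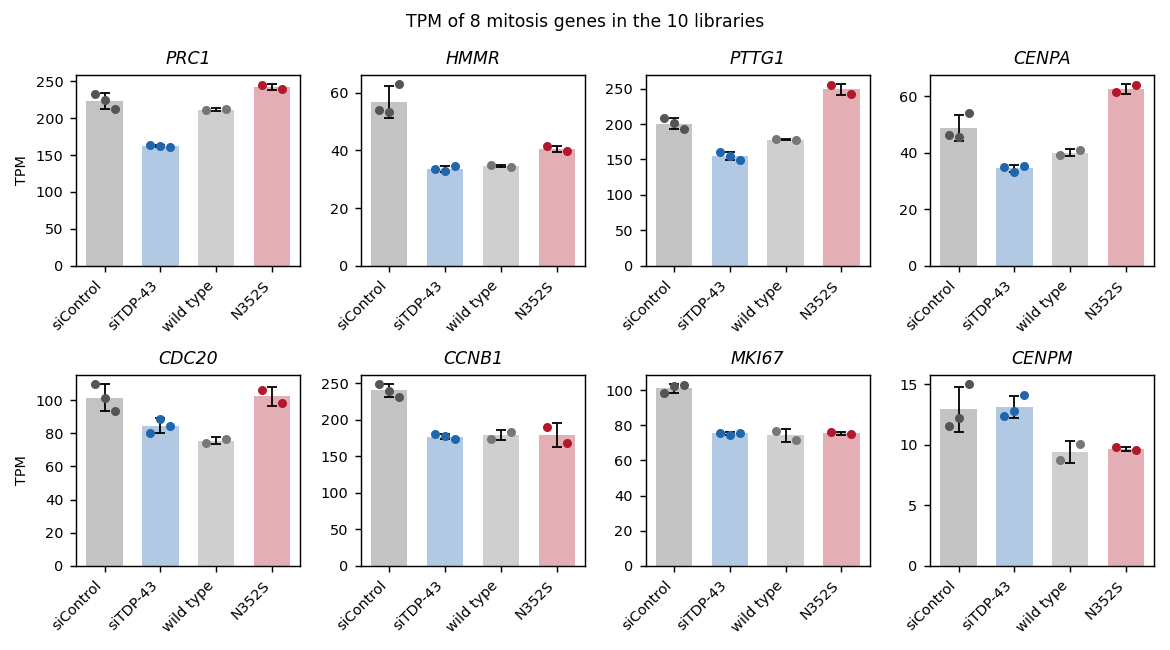
TPM of 8 genes in each of the 10 libraries (points), with bars from 0 to the mean of each group and whiskers for its SD (siRNA groups n = 3, genotype groups n = 2). PRC1, PTTG1, CENPA and CDC20 are called lower after knockdown and higher in N352S, HMMR, CCNB1 and MKI67 are called lower after knockdown and not called in N352S, and CENPM overlaps in both comparisons.

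In cytokinesis all 4 genes fell (against 19.8% of all tested genes). PRC1 (ENSG00000198901, chromosome 15, 90966038 to 90995629), which bundles the antiparallel microtubules of the midzone, had 233, 226 and 212 TPM in siControl and 163, 162 and 160.4 TPM in siTDP-43 libraries. The groups were far apart relative to their spread, and its adjusted p was the smallest of the 54 (log2 -0.46 ± 0.04, limma adjusted p = 8.2e-05). Its partners in placing the cleavage furrow, RACGAP1 and ECT2, fell to 78.5% and 75.9%, and ANLN, a scaffold of the contractile ring, to 77.8% (log2 -0.36 ± 0.10, limma adjusted p = 0.026). The calls of ANLN and BUB1B were lost in 9 of 23 alternatives each.

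Of 9 genes of chromosome structure and cohesion, 4 fell (44.4%, against 19.8% of all tested genes). MKI67 (ENSG00000148773, chromosome 10, 128096659 to 128126385), which coats mitotic chromosomes and is the usual marker of dividing cells, had 98.2, 102 and 103 TPM in siControl and 75.8, 74.5 and 75.9 TPM in siTDP-43 libraries, 74.6% of control (log2 -0.42 ± 0.04, limma adjusted p = 0.00013). The condensin subunits SMC4 (78.2%) and NCAPG (76%) fell, whereas their partners SMC2 (90.7%; limma adjusted p = 0.088) and NCAPH (89.4%; 0.1) were not called. TOP2A (ENSG00000131747, chromosome 17, 40388516 to 40417950), the topoisomerase that untangles sister chromatids, had 177, 182 and 193 TPM in control and 155, 154 and 148 TPM in knockdown libraries and fell to 82.7% (log2 -0.27 ± 0.05, limma adjusted p = 0.0027). HMGB2, the most abundant member, was not called, at 812, 815 and 925 TPM in control and 742, 770.2 and 788 TPM in knockdown libraries (log2 -0.15 ± 0.06, limma adjusted p = 0.11). CDCA2, with 20.4, 23.99 and 27.3 TPM in control and 21.1, 21.2 and 19.7 TPM in knockdown libraries, and CDCA5 (sororin, 92.9% of control) were not called either, and both overlapped between the groups. Differences between roles in the share of genes called were not tested.

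Many members deviated together within the control group. The members summed to 6295.4, 6340.8 and 6720.8 TPM in siControl 1, 2 and 3, to 5251.4, 5282 and 5288.3 TPM in the siTDP-43 libraries, 4782.9 and 4927.4 TPM in wild type and 5473.4 and 5326 TPM in N352S. The siControl 3 library was the highest of its group in 38 of 54 members and siControl 1 the lowest in 31. The median coefficient of variation of a member was 6.21% among siControl libraries and 2.68% among siTDP-43, and 2.76% and 2.98% in the wild-type and N352S pairs. Without siControl 3, 43 members fell and the median log2 fold change was -0.28. The knockdown group mean of the sum was 81.7% of control (5273.9 ± 19.7 against 6452.4 ± 234 TPM; SD, n = 3 each).

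**Figure D3:**
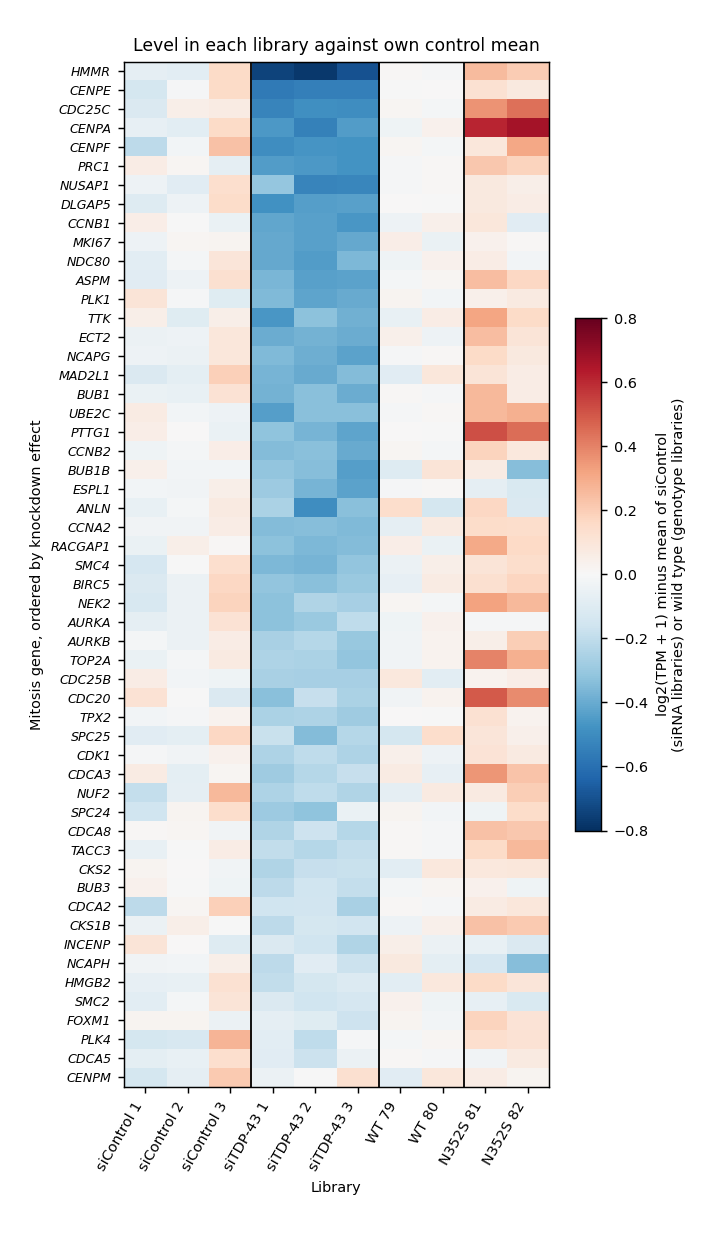
Heat map of log2(TPM + 1) of the 54 genes (rows, ordered by knockdown effect) in the 10 libraries (columns), less the mean of siControl for the siRNA libraries and of wild type for the genotype libraries. The siTDP-43 columns are blue (lower) in nearly all rows, siControl 3 is the highest of its group in 38 rows, and both N352S columns are above wild type in 36.

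The second comparison asked what the homozygous N352S change did in the genome-edited cells. Here the mitosis genes leaned upward: 13 of 54 rose (24.1%) and 0 fell, with a background of 8.28% higher and 11.9% lower, and 41 were not called (limma). At an unadjusted p under 0.05, 1 member, NCAPH, was lower. The median log2 fold change was 0.12, against -0.03 over all tested genes, and the sum over members was 111% of wild type (5399.7 ± 104 against 4855.2 ± 102 TPM; SD, n = 2 each), as a description without a test. Both N352S libraries lay above both wild-type libraries in 36 members, a pattern of 25.4% of tested genes, and both lay below in 4, INCENP, ESPL1, SMC2 and NCAPH, where the background was 34.7%. With 2 libraries a group, the fit borrows its spread from the knockdown experiment. Fitted on the genotype libraries alone, 9 members rose (against 5.26% of all tested genes), and CDCA3, CDCA8, TACC3 and RACGAP1 lost their calls.

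Of the 4 anaphase regulators, 3 rose (75%, against 8.28% of all tested genes). PTTG1 had 178 and 177 TPM in wild-type and 255 and 243 TPM in N352S libraries, a log2 change of 0.48 ± 0.05 (SE; limma adjusted p = 0.0002). CDC20 (ENSG00000117399, chromosome 1, 43358955 to 43363203) had 73.8 and 76.8 TPM in wild type and 106 and 98.3 TPM in N352S and rose to 136% (log2 0.44 ± 0.08, limma adjusted p = 0.0051). UBE2C rose from 183 and 185 to 220.4 and 224 TPM (log2 0.27 ± 0.05, limma adjusted p = 0.0063). ESPL1, whose protein securin holds inactive, was not called, at 29.2 and 29.6 TPM in wild type and a lower 27.9 and 26.9 TPM in N352S (log2 -0.10 ± 0.06, limma adjusted p = 0.28).

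CENPA had the largest N352S change of the 54. It stood at 39.1 and 40.9 TPM in wild-type and 61.5 and 64.03 TPM in N352S libraries, 157% of wild type (log2 0.64 ± 0.08, limma adjusted p = 0.00068). It was the single member of the 54 called with a threshold of 1.5-fold, a share below the 2.96% of all tested genes. Exons of CENPA overlap those of SLC35F6 on the same strand. SLC35F6 itself had 20.83 ± 0.651 TPM in wild-type and 22.92 ± 0.834 TPM in N352S libraries (SD, n = 2 each) and was not called (adjusted p = 0.18). The other 7 kinetochore genes were not called, with log2 fold changes up to 0.20 (CENPF).

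In the CDK1 group, 3 of 10 rose (30%, against 8.28% of all tested genes). CDC25C had 11.9 and 11.6 TPM in wild-type and 15.4 and 16.3 TPM in N352S libraries, 135% (log2 0.40 ± 0.07, limma adjusted p = 0.0055). CKS1B (ENSG00000173207, chromosome 1, 154974653 to 154979249), the second most abundant member, rose from 395 and 416 to 478 and 468 TPM (log2 0.22 ± 0.04, limma adjusted p = 0.0082), and CDCA3 rose to 123% (adjusted p = 0.019). CDK1 was at 106% of wild type and not called (limma adjusted p = 0.18), as were CCNA2 (0.1) and CCNB2 (0.099), in each of which both N352S libraries were the higher ones. CCNB1 did not separate the groups, at 174 and 184 TPM in wild type and 191 and 168 TPM in N352S.

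TOP2A rose from 126 and 130.3 to 169 and 156 TPM, 127% of wild type (log2 0.34 ± 0.06, limma adjusted p = 0.003). CDCA8 (ENSG00000134690, chromosome 1, 37692418 to 37709719) rose from 38.2 and 37.6 to 44.8 and 44.1 TPM (log2 0.22 ± 0.04, limma adjusted p = 0.0076). Both changes exceeded the spread within either pair. The remaining calls were PRC1, from 211 and 213 to 246 and 239.6 TPM, and NEK2, TACC3 and RACGAP1, at 123%, 116% and 118% of wild type (limma adjusted p = 0.017, 0.044, 0.021 and 0.024). NEK2's call was lost in 12 of 22 alternatives.

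The 5 checkpoint genes were not called in N352S cells, from TTK (limma adjusted p = 0.072) to BUB3 (1), and 7 members had a fold below 0. NCAPH had 70.5 and 62.96 TPM in wild-type and 60.5 and 52.4 TPM in N352S libraries (log2 -0.24 ± 0.08, limma adjusted p = 0.064). BUB1B had 53.8 and 62.2 TPM in wild type and 60.7 and 45.6 TPM in N352S, with N352S 82 well below N352S 81. SMC2 had 30.7 and 29.2 TPM in wild type and 28.6 and 27.5 TPM in N352S, INCENP 67.4 and 62.8 TPM and 62.4 and 59.9 TPM, and AURKA 36.2 and 37.95 TPM and 36.8 and 36.8 TPM. None of these was called. Without N352S 81, NCAPH and BUB1B were called lower. MKI67 had 76.9 and 71.7 TPM in wild type and 76.2 and 74.8 TPM in N352S and was not called (limma adjusted p = 0.77). HMGB2 (614 and 693 TPM in wild type, 724 and 697 TPM in N352S), CDCA2 (14.4 and 14.2 TPM in wild type, 15.02 and 15.3 TPM in N352S) and CENPM (8.76 and 10.04 TPM in wild type, 9.8 and 9.54 TPM in N352S) were not called.

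Median-of-ratios scaling added CDK1, CCNA2, CCNB2, FOXM1, TTK, HMMR, ASPM and ECT2 to the 13 genes that rose in N352S. That made 21 in all, where 10.8% of all tested genes rose. Quantile normalization added TTK, HMMR, ASPM and ECT2, 17 in all, where 9.71% of all tested genes rose. The background in the main model was 8.28%. No member called in the main model changed sign in either comparison under any alternative run.

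Most members had opposite signs in the experiments. The 13 genes that rose in N352S all fell after knockdown, a joint pattern found in 2.71% of tested genes; 29 fell after knockdown without a call in N352S, and 12 were called in neither. By sign alone, 46 of 54 were below control after knockdown and above wild type in N352S. Some of these N352S folds were near 0, such as those of MKI67 and NDC80 (log2 0.02 each). The share of all tested genes with these signs is not given here. Their medians were -0.08 after knockdown and -0.03 in N352S. The difference between the log2 effects, knockdown minus N352S, was tested in the same fit and was below 0 in 40 members and above 0 in 0, with a background of 13.8% and 8.2%; the count above 0 at an unadjusted p under 0.05 was also 0. Its median over members was -0.44, and 38 of the 40 had opposite signs in the experiments. The experiments share no library, so each effect has its own controls.

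The effects differed most surely in PTTG1 (log2 -0.85 ± 0.06, limma adjusted p = 3.6e-05), PRC1 (log2 -0.66 ± 0.06, limma adjusted p = 0.00011), CENPA (log2 -1.12 ± 0.10, limma adjusted p = 0.00012), UBE2C (log2 -0.64 ± 0.07, limma adjusted p = 0.00024), HMMR (log2 -0.97 ± 0.10, limma adjusted p = 0.00025) and CDC25C (log2 -0.91 ± 0.10, limma adjusted p = 0.00026). TOP2A (log2 -0.61 ± 0.07, limma adjusted p = 0.00047) and CDCA8 (log2 -0.44 ± 0.06, limma adjusted p = 0.00087) followed. In all 8, every siTDP-43 library lay below its controls and every N352S library above its own. All 10 genes of the CDK1 group, all 4 anaphase regulators and all 6 spindle assembly genes were among the 40, FOXM1 included (log2 -0.25 ± 0.06, limma adjusted p = 0.019). Of the 14 that were not, the kinetochore group held NUF2, SPC24, SPC25 and CENPM and the chromosome group HMGB2, SMC2, NCAPH, CDCA2 and CDCA5; the others were AURKA, PLK4, BUB1B, INCENP and ANLN. Across the 54 genes the size of one effect did not follow that of the other closely (Pearson's r = -0.28, Spearman's rho = -0.22; over all tested genes 0.01 and -0.01). Genes are not independent replicates, and the libraries are the same for all of them.

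**Figure D4:**
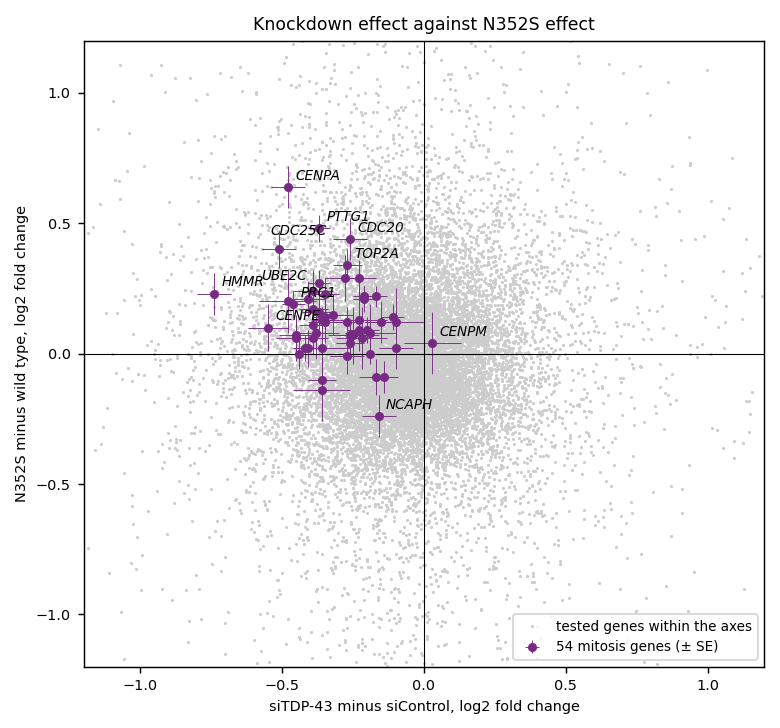
Log2 fold change of siTDP-43 minus siControl (x axis) against N352S minus wild type (y axis) for the 54 genes (large points, with SEs) and for the tested genes that lie within the axes (small grey points). The upper left part, lower after knockdown and higher in N352S, holds 46 of the 54.

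The control groups differed from each other. Wild-type means lay below siControl means in 52 of 54 members, at a median of 72.45%, from 48.4% (CENPE) to 108% (CDC25B). The summed level in wild type was 75.2% of siControl and that in N352S 83.7%, so the N352S level lay near that of siTDP-43 at 81.7%. By summed level the order was siControl, N352S, siTDP-43 and wild type, and the ranges of N352S and siTDP-43 libraries were next to each other without overlap. The siRNA transfection and the experiment separate the controls together and cannot be told apart, so no test was made between them.

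Reads of overlapping genes are a limit for 11 members whose exons overlap those of another tested gene, since strand-specific counting is not stated. Besides CENPA and SPC24 these are CCNA2 (EXOSC9), CDC25C (FAM53C), CDCA3 (GNB3), FOXM1 (ITFG2), NUF2 (RGS5), PRC1 (PRC1-AS1), ANLN (KIAA0895), SMC4 (IFT80 and TRIM59) and NCAPG (LCORL). Of the 43 members without such an overlap, 34 fell after knockdown, 9 rose in N352S and 32 differed between the effects. Among the 11 with an overlap these counts were 8, 4 and 8. Of all tested genes, 19.8% fell after knockdown, 8.28% rose in N352S and 13.8% had a difference below 0.

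Other genes of the same machinery were taken from further lists. CDC25A, called lower in N352S, is counted both among the further mitosis genes and among those of G1 and S phase. Of 12 mitotic kinesins, the motors that slide and depolymerize spindle microtubules, 9 fell after knockdown (75%, against 19.8% of all tested genes) and 0 rose (against 6.19%). KIFC1 (log2 -0.40 ± 0.04, limma adjusted p = 0.00034), KIF23 (log2 -0.28) and KIF2C (log2 -0.35) were most certain. At an unadjusted p under 0.05 in limma, 1 kinesin, KIF18B, was higher. In N352S 2 of the 12 rose (16.7%, against 8.28% of all tested genes), KIF18B (log2 0.38 ± 0.07, limma adjusted p = 0.006) and KIF14 (log2 0.24). The count of kinesins that fell was 0 (against 11.9%), also 0 at an unadjusted p under 0.05. Of 60 further mitosis genes, 28 fell (46.7%, where 19.8% of all tested genes fell) and 1 rose (1.67%, against 6.19%) after knockdown, with a median log2 fold change of -0.18. FAM64A, a late cell cycle gene also called PIMREG, fell from 79.15 ± 0.721 TPM to 49.12 ± 1.73 TPM (SD, n = 3 each), and the inner kinetochore gene CENPU and the spindle gene PSRC1 fell by 0.32 and 0.34 on the log2 scale. In N352S 4 of these 60 rose (6.67%, below the 8.28% of all tested genes), TROAP (log2 0.29) with the smallest adjusted p, and 4 fell (6.67%, below 11.9%), among them the kinetochore genes PMF1 (log2 -0.34) and ZWILCH (log2 -0.29).

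A list of 16 genes of the anaphase-promoting complex held its subunits, the activator FZR1 and the ubiquitin-conjugating enzyme UBE2S. Of the 16, 5 fell (31.2%, against 19.8% of all tested genes) and 1 rose (6.25%, against 6.19%) after knockdown. In N352S 1 fell and 1 rose (6.25% each, against 11.9% and 8.28%). ANAPC13 fell from 61.52 ± 0.641 TPM to 32.86 ± 1.45 TPM (SD, n = 3 each; log2 -0.89 ± 0.04, limma adjusted p = 7.7e-06), a larger fold than that of any of the 54. CDC27 fell by 0.55 on the log2 scale and ANAPC5 by 0.21. In N352S ANAPC11 rose (log2 0.26) and ANAPC1 fell (log2 -0.38).

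Genes of G1 and S phase, which act before the 54, fell in shares near the background. Of 48 tested, 8 fell (16.7%, against 19.8% of all tested genes) and 1 rose (2.08%, below 6.19%) after knockdown. The median log2 fold change was -0.05, against -0.08 over all tested genes. In N352S 7 fell and 3 rose (14.6% and 6.25%, against 11.9% and 8.28%). The CDK6 kinase fell after knockdown (log2 -0.51 ± 0.05, limma adjusted p = 0.00022) and rose in N352S (log2 0.33 ± 0.06, limma adjusted p = 0.0067), and RFC5, a subunit of the loader of the replication clamp, fell after knockdown (log2 -0.43). MCM7 of the replicative helicase and CDK4 fell in N352S (log2 -0.25 and -0.19). A test of the difference between the lists was not made.

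**Figure D5:**
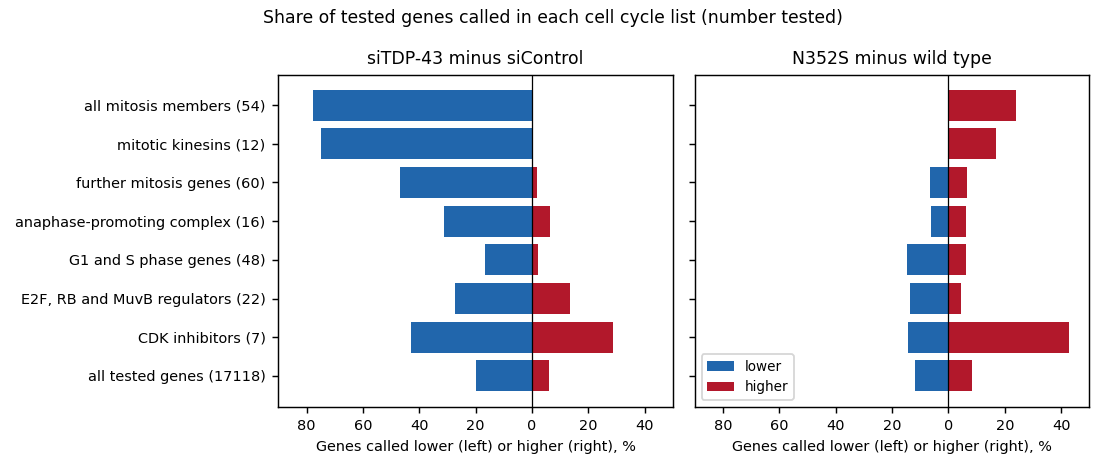
Share of tested genes called lower (bars to the left) and higher (bars to the right) by limma in the knockdown (left panel) and N352S comparison (right panel), for the 54 genes, 6 related lists and all 17118 tested genes, with the number tested in brackets. The 54 genes and the kinesins have the longest bars to the left after knockdown, at 77.8% and 75%, and no bar to the left in N352S.

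Among 22 E2F, RB and MuvB regulators, 6 fell (27.3%) and 3 rose (13.6%) after knockdown, where 19.8% and 6.19% of all tested genes did. In N352S 3 fell (13.6%) and 1 rose (4.55%), near the 11.9% and 8.28% of all tested genes. RB1, the retinoblastoma protein that restrains E2F, fell to 64% of siControl (log2 -0.63 ± 0.06, limma adjusted p = 0.00015), NFYB, a subunit of the CCAAT-binding factor, to 76.8% and TFDP1, the E2F partner, to 81.4%. MYBL2, which encodes B-MYB, fell to 87.2% after knockdown and rose to 113% of wild type in N352S, and the effects differed (log2 -0.37 ± 0.06, limma adjusted p = 0.0031). E2F4, which with the RB relatives represses cell cycle genes in resting cells, had the opposite order: it rose to 110% after knockdown and fell to 82.7% in N352S, a difference of effects of log2 0.41 ± 0.06, limma adjusted p = 0.0018. The other regulators that rose after knockdown were RBL1, one of those relatives, to 122% and LIN52, a MuvB subunit, to 119%. In N352S, E2F5 and RBBP4 also fell (log2 -0.31 and -0.27).

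CDK inhibitors did not move together. CDKN1A (ENSG00000124762, chromosome 6, 36676460 to 36687339), which encodes p21, had 30.5, 31.3 and 38.9 TPM in siControl and 55.9, 55.4 and 67.5 TPM in siTDP-43 libraries and rose (log2 0.81 ± 0.10, limma adjusted p = 0.00072). It also rose in N352S, from 45.2 and 49.9 to 71.99 and 69.5 TPM (log2 0.56 ± 0.13, limma adjusted p = 0.014). CDKN3, a phosphatase of CDK1 and CDK2 that is itself a late cell cycle gene, fell after knockdown from 71.54 ± 0.892 TPM to 47.85 ± 2.67 TPM (SD, n = 3 each) and rose in N352S from 54.05 ± 7.22 TPM to 83.45 ± 0.46 TPM (SD, n = 2 each). CDKN1B fell after knockdown (log2 -0.37). CDKN2A, which encodes p16 and ARF, rose in N352S from 13.3 and 14.8 to 39.98 and 43.9 TPM (log2 1.51 ± 0.18, limma adjusted p = 0.00058) and had 2.04, 2.73 and 3.6 TPM in siControl and 2.21, 2.5 and 3.04 TPM in siTDP-43 libraries, where it was not called. CDKN1C had the opposite order, with a difference of effects of 0.89 (limma adjusted p = 0.00072). The part of these regulators in the levels of the 54 genes was not tested.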

How the data were processed

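Each of the 10 libraries is RNA sequencing of SH-SY5Y cells, with Trizol extraction and a TruSeq kit per the labels' protocols. The authors deposited TPM with 2 decimals for 58174 genes. The submitters' processing notes name STAR, RSEM and hg38. Their versions, the annotation and the strand setting were not given in the sources used here. As TPM keep no depth, no counting interval or detection floor is given. As shares, they fall when abundant transcripts rise.

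The 17118 genes that averaged 1 TPM or more were tested as log2(TPM + 1), a scale that understates changes of low genes. One limma 3.58.1 model (R 4.3.3, eBayes with a trend) held the means of the 4 groups and left 6 residual degrees of freedom. It gave the knockdown effect (siTDP-43 less siControl), the N352S effect (N352S less wild type) and the knockdown effect less the N352S effect. A gene was called where its p, adjusted over the tested genes by the Benjamini-Hochberg method, was under 0.05. Beside TPM, ± marks the SD of libraries, and beside log2 fold changes the SE from the model. Positions come from GENCODE 29, in which 99.4% of the identifiers were found. Figures were drawn with matplotlib 3.10.9.

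The members and lists were chosen with earlier results of these data known, so lists are described by counts and medians beside all tested genes, without list tests. Library values are given for the 8 members of smallest adjusted p in each contrast, the 3 most and 3 least abundant, and those whose fold opposed the majority. From each related list up to 3 genes per contrast were named by adjusted p, and CDKN1A. RBL1 and LIN52 were added after their values were seen, and CDC25A because lists share it. Library values of CDK1 and PLK4 and the partners of exon overlaps were added after their values were seen. Some genes that these rules or lists would name are not reported here. Both siRNA groups carry the numbers 1 to 3 in their titles, and libraries of the same number deviated together (correlations of 0.34, 0.14 and 0.20, each over 0.1), so a model with this number as a block was added. No number is shared by the genotype groups. Other alternatives were a pseudocount of 0.1 or 5, no filter or one at 5 TPM, median-of-ratios or quantile scaling, mitochondrial genes left out, separate models per experiment, eBayes without a trend or robust, a threshold of 1.5-fold or of adjusted p under 0.01, and each library left out.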

Additional observations from a re-analysis of the deposited data

Results flagged for a closer look

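In 40 of the 54 genes the knockdown and N352S effects differed by the test of the difference itself in limma (adjusted p under 0.05), always with the knockdown effect the lower one. The differences of log2 effects, knockdown minus N352S, were largest in CENPA (-1.12), HMMR (-0.97), CDC25C (-0.91) and PTTG1 (-0.85), and so covered the centromeric histone, a spindle protein, a CDK1 phosphatase and securin. In the CDK1 group they were also below 0 in CDCA3 (-0.52), CCNA2 and CCNB2 (-0.49 each), CCNB1 (-0.44), CKS1B (-0.39), CDK1 (-0.32), CDC25B (-0.3), CKS2 (-0.29) and FOXM1 (-0.25). Kinases, checkpoint and passenger complex genes gave TTK (-0.63), NEK2 (-0.57), BUB1 (-0.53), BIRC5 (-0.47), MAD2L1 (-0.46), PLK1 (-0.45), CDCA8 (-0.44), AURKB (-0.39) and BUB3 (-0.19). Kinetochore genes gave CENPF (-0.68), CENPE (-0.65) and NDC80 (-0.42), and the other anaphase regulators CDC20 (-0.7), UBE2C (-0.64) and ESPL1 (-0.27). For the spindle and cytokinesis the values were PRC1 (-0.66), ASPM (-0.62), RACGAP1 (-0.58), ECT2 (-0.56), DLGAP5 (-0.52), NUSAP1 (-0.51), TACC3 (-0.41) and TPX2 (-0.33), and for chromosome structure TOP2A (-0.61), NCAPG (-0.5), SMC4 (-0.47) and MKI67 (-0.44). ESPL1 and CCNB1 were the 2 of the 40 whose N352S effect was not above 0. Groups of 2 and 3 libraries were too small for a test of single libraries that stand apart.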

How the results depend on the processing

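No member called in the main model changed sign under any alternative. Of the 42 knockdown calls, 33 were lost under the 1.5-fold threshold at most, and of the 13 N352S calls 6; the cause of the other losses was not tested. The 1.5-fold threshold left 1 member lower after knockdown, 1 higher in N352S and 12 with a difference. Of all tested genes it left 2.77%, 2.96% and 6.77% in the same directions. An adjusted p under 0.01 left 8 higher in N352S, against 4.38% of all tested genes. Median-of-ratios scaling gave 21 higher in N352S, against 10.8% of all tested genes, and a knockdown median of -0.24. Quantile normalization gave a knockdown median of -0.25. Leaving out mitochondrial genes called 1 member lower in N352S, NCAPH. Without single libraries, 38 to 44 members were lower after knockdown, 9 to 15 higher in N352S, 0 to 2 lower in N352S (2 without N352S 81) and 35 to 40 had a difference; medians were -0.34 to -0.28 and 0.09 to 0.14. A lone library left in a group is assumed to vary like the others. Summed TPM under median-of-ratios scaling were 6152.6 in siControl, 5342.9 in siTDP-43 and 5560.8 in N352S, and without mitochondrial genes 7443.5, 6262.1, 6266.6 and, in wild type, 5669.1. With the replicate block, which pairs the siRNA libraries, 42 members were lower after knockdown and the median was -0.33; CDC20 left and INCENP (log2 -0.17) joined, with no other call changed. The block and the fit of only the groups compared give no value for the difference.

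Signs turned only in members that were not called in the main model, given here as log2 values. After knockdown these were CENPM (-0.04 to 0.13 without single libraries) and PLK4 (0.04 without siControl 3). In N352S, median-of-ratios scaling gave CCNB1 0.04 and AURKA 0.03, quantile normalization CCNB1 0.02, AURKA 0.01 and BUB3 -0.01, and removal of mitochondrial genes BUB3 -0.01. Without single libraries the values were CCNB1 -0.09 to 0.09, CDC25B -0.04 to 0.12, AURKA -0.04 to 0.02, BUB1B -0.34 to 0.07, BUB3 -0.03 to 0.03, MAD2L1 -0.01 to 0.17, NDC80 -0.02 to 0.06, SPC24 -0.03 to 0.15, SPC25 -0.07 to 0.21, CENPM -0.05 to 0.13, ANLN -0.12 to 0.17, MKI67 -0.03 to 0.07 and CDCA5 -0.03 to 0.07. Depth is unknown and cannot be weighed.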
